A study of Mus musculus with 3 samples.

Results

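Checkpoint receptors are brakes on the surface of T cells and natural killer (NK) cells, and 7 of their genes were followed through the leukocytes of a mouse lung tumor. The set holds 5 receptors, Pdcd1 (PD-1), Lag3 (LAG-3), Havcr2 (TIM-3), Tigit (TIGIT) and Ctla4 (CTLA-4), and the 2 ligands of PD-1, Cd274 (PD-L1) and Pdcd1lg2 (PD-L2). These 7 of 33696 annotated genes were chosen by name, with no threshold on a measured value, and all 7 were detected. Their identifiers and summed unique molecular identifiers (UMIs, each standing for 1 captured transcript) over all kept cells were ENSMUSG00000026285 with 58912 for Pdcd1, ENSMUSG00000030124 with 52092 for Lag3, ENSMUSG00000020399 with 67738 for Havcr2, ENSMUSG00000071552 with 11269 for Tigit, ENSMUSG00000026011 with 238776 for Ctla4, ENSMUSG00000016496 with 86386 for Cd274 and ENSMUSG00000016498 with 30851 for Pdcd1lg2.

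The cells were live CD45+ leukocytes that had been sorted from KP1 tumors, a small-cell lung cancer line that lacks functional Rb and p53, grown under the skin of wild-type F1 mice (female B6129SF1/J in the study's methods). Each of 3 libraries came from 1 treatment group. The mono-IL-10 group (labelled Supermono-10) received a monomeric form of the cytokine IL-10, the IL-10/2-Trikine group (10/2-Trikine) a fusion that brings together receptor chains for IL-10 and IL-2, and the Trikine + anti-PD-1 group (10/2-Trikine + PD1) that fusion and the PD-1 blocking antibody RMP1-14. All mice received 500000 tumor cells and 3 µg of cytokine per dose on alternate days from day 7, tumors were taken on day 19, and the antibody dose was 200 µg, given on day 7, day 11, day 15 and day 19. The protocol text can also be read as giving the antibody to every group. The titles and treatment labels, which name it for 1 group, were followed. There was no untreated group, and the number of mice behind a library and their age are not given in the labels.

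PD-1 is induced when the T cell receptor is engaged, and its binding to PD-L1 or PD-L2 recruits phosphatases that dampen signaling from that receptor and from CD28. CTLA-4 competes with CD28 for CD80 and CD86 and is abundant on regulatory T cells, LAG-3 binds MHC class II, TIGIT competes with CD226 for the poliovirus receptor and nectins, and TIM-3 is found on chronically stimulated T cells and also on dendritic cells and macrophages. PD-L1 is widely inducible by interferon-gamma, whereas PD-L2 is largely a product of antigen-presenting cells. Several of these receptors are commonly present together on T cells that have seen antigen for a long time.

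The libraries held 158570946, 197176873 and 175794959 UMIs in the order mono-IL-10, IL-10/2-Trikine and Trikine + anti-PD-1, the order kept for every run of 3 values here. They gave 22235, 22707 and 26967 kept cells with median depths of 4774, 5562 and 4273 UMIs, and between 137 and 180 cell barcodes were shared by any pair of libraries. Of these cells 59730 fell into 22 populations that were named from fixed marker genes, with "-like" marking that origin. Although the label for cell type reads "Mouse T cells", T cell-like cells with alpha-beta markers numbered 7565, 8726 and 10270, and cells of the tumor line itself 801, 1001 and 965. The T cell-like counts, and all T cell-like values below, leave out a shallow T cell-like cluster that was set aside, as given below. The 10 T cell markers summed to 7692, 6048 and 7571 CPM (defined below) in the T cell-like cells and to 232, 432 and 225 CPM in the macrophage-like and monocyte-like cells together. The 9 alpha-beta T subsets comprised Ly6c2-led, Calcb-led and cycling CD8 cells, Csf1-led, Lrig1-led, heat shock-led and cycling CD4 cells, regulatory T-like cells and naive-like T cells. The Ly6c2-led subset had 5 enriched CD8 markers and 5 enriched naive-like ones, and Ifit1bl1 and Klf3 stood ahead of Ly6c2 in it. The heat shock-led subset is led by stress genes, and naive-like cells numbered only 1046, 48 and 39. The 7 genes were kept out of the clustering. Scrublet called 14.1, 16.3 and 5.27% of kept cells doublets, at score thresholds of 0.156, 0.152 and 0.268 set for each library. The calls were thus not made at 1 common cut, and removing called doublets takes unlike shares from the libraries. A total of 12179 cells were set aside. For most, the cluster had no clear identity or most of its cells were called doublets. Examples of the latter were a macrophage-like cluster of 3229 cells and a cDC2-like one of 291. A T cell-like cluster of 2367 cells (394, 735 and 1238) with 9 enriched T cell markers was also set aside, for its low median depth of 937 UMIs. Shallow macrophage-like and KP1 tumor cell-like clusters, with medians of 537.5 and 826.5 UMIs, were kept. The other called doublets were left in unless stated. The cells set aside held between 10.8 and 27.7% of a member's UMIs, depending on gene and library.

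Levels below are CPM, a gene's UMIs scaled to 1000000 UMIs of its population in a library. In brackets stand exact 95% Poisson intervals for levels and conditional binomial intervals for ratios. Shares are percentages of cells with at least 1 UMI at an equal depth of 1000 randomly drawn UMIs per cell, and the 499, 174 and 458 T cell-like cells below that depth do not enter. All intervals cover counting error alone. With 1 library per group, no spread between mice was measured, no test could be run, and every comparison is one of libraries rather than of treatments. A 1.5-fold ratio served to mark the larger differences. Both comparisons contain the IL-10/2-Trikine library, so a low value there lowers the first ratio and raises the second. Over all measured genes the median log2 ratio in T cell-like cells was -0.17 for IL-10/2-Trikine over mono-IL-10 and 0.05 for Trikine + anti-PD-1 over IL-10/2-Trikine, and ratios are to be read against that shift.

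UMIs of lymphocyte genes also occurred in other cells, where free RNA and doublets were not told apart. Neutrophil-like and KP1 tumor cell-like cells, which should lack Pdcd1, Lag3, Tigit and Ctla4, served as background together with empty droplets, the barcodes with 1 to 100 UMIs. Pdcd1 stood at 4.66, 9.20 and 27.3 CPM in KP1 tumor cell-like cells, at 14.5, 41.7 and 41.8 CPM in neutrophil-like cells and at 40.3, 109.6 and 116 CPM in empty droplets. These background levels were lowest in the mono-IL-10 library, as were those of T cells below, and their part in the T cell ratios was not tested. In the KP1 tumor cell-like cells, Lag3 reached 12.8, 10.8 and 24.8 CPM, Tigit 2.63, 2.10 and 5.10 CPM and Ctla4 63.8, 50.3 and 86.0 CPM. Of the KP1 tumor cell-like cells 14.2, 13.5 and 11.0% were called doublets, and of the neutrophil-like cells 15.1, 17.1 and 4.42%. KP1 tumor cell-like cells differed in depth between libraries, with median UMIs of 1359, 9857 and 3193. For Pdcd1 these cells and neutrophil-like cells lay well below the empty droplets. A level below empty droplets thus does not by itself show that a gene is absent.

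Pdcd1, which encodes PD-1, was highest in Csf1-led CD4 cells of every library, at 335 (315 to 356), 349 (328 to 371) and 419 (406 to 431) CPM. Below them came the cycling CD4 cells at 199, 198 and 305 CPM, the Calcb-led CD8 cells at 170.2, 223 and 332 CPM and the Lrig1-led CD4 cells at 145, 215 and 302 CPM. The Csf1-led level lay above the interval of the next subset in all 3 libraries, whereas Lrig1-led and cycling CD4 cells had overlapping intervals with IL-10/2-Trikine and with the combination. Ly6c2-led CD8 cells had 74.9, 176 and 207 CPM, regulatory T-like cells 93.8, 136 and 197 CPM, heat shock-led CD4 cells 139, 146 and 234 CPM and cycling CD8 cells 81.8, 150.3 and 192 CPM. Gamma-delta T-like cells had 47.4, 62.2 and 104 CPM, above the empty droplets with mono-IL-10 and below them in the other 2 libraries. NK cell-like cells had 13.8, 19.4 and 28.9 CPM, which is below the empty droplets throughout and at or below the neutrophil-like level. Against KP1 tumor cells, the NK level was about equal in the combination but higher in each of the other libraries. Whether NK cell-like cells held Pdcd1 above background therefore depends on the background class taken, and was not tested. The plot of receptor levels sets the order of subsets beside the differences between libraries, and Csf1-led CD4 cells with mono-IL-10 stood about level with Calcb-led CD8 cells of the combination.

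**Figure D1:**
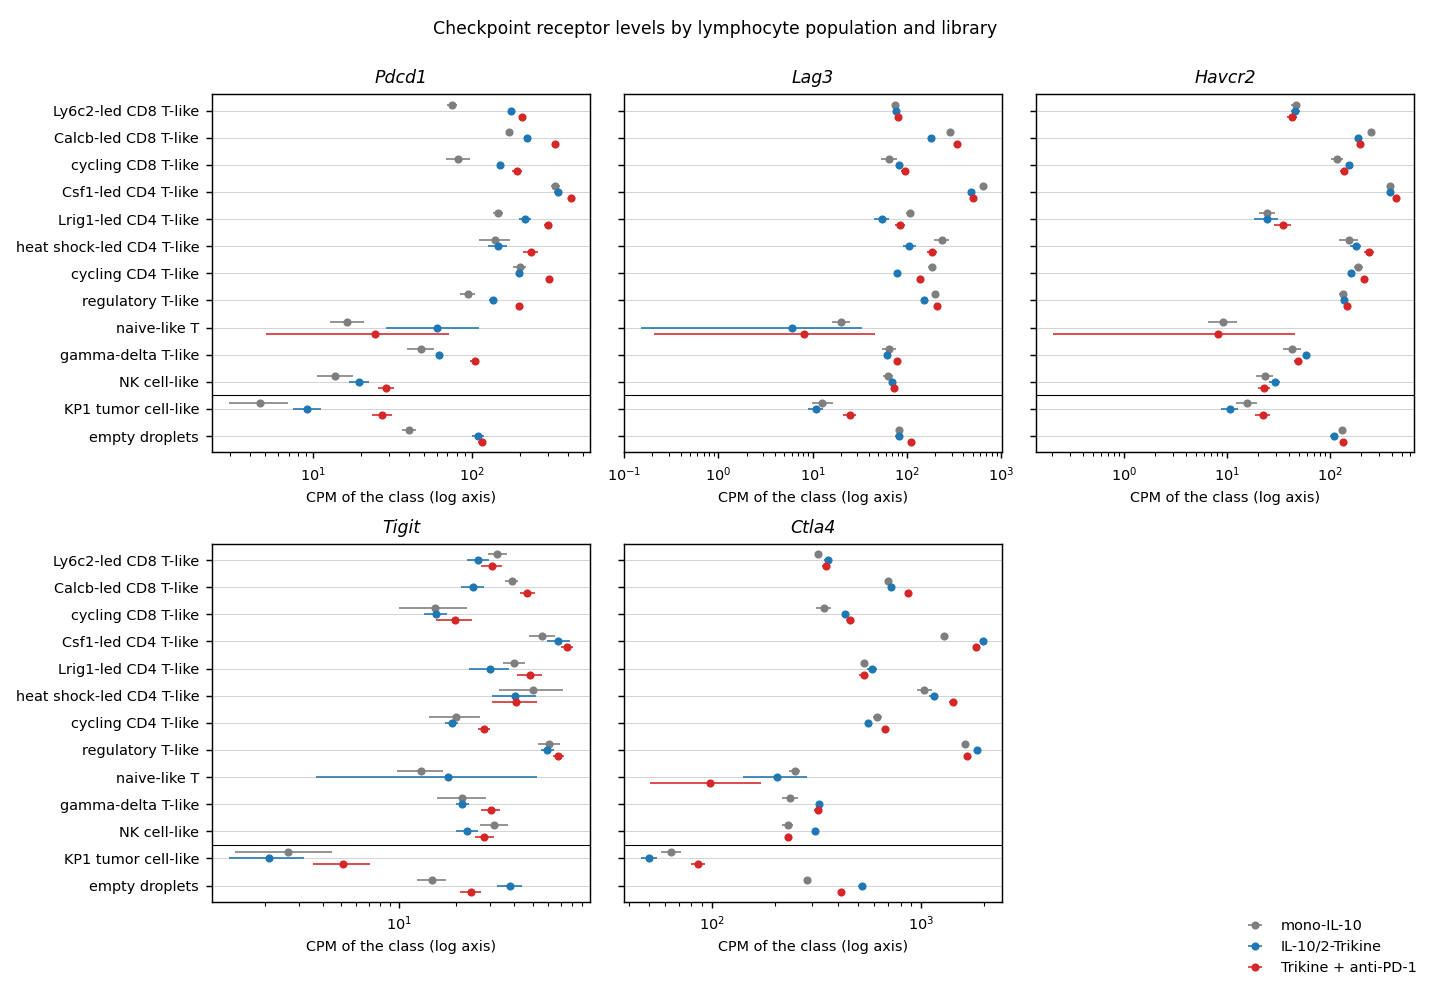
Levels of the 5 receptor genes by population and library. Each panel is 1 gene, the x axis is CPM on a log scale, the rows are the T subsets, other lymphocytes and background classes, points are libraries and bars are exact 95% Poisson intervals (counting error alone), with levels of 0 not drawn. Csf1-led CD4 cells lead Pdcd1 and Lag3 in all 3 libraries, and regulatory T-like and Csf1-led CD4 cells lead Ctla4.

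Over all T cell-like cells, Pdcd1 measured 137 (133 to 140.2), 187 (184 to 190.1) and 287 (283 to 291) CPM. The 3 intervals do not overlap. The ratio of IL-10/2-Trikine to mono-IL-10 was 1.37 (1.33 to 1.41), and that of the combination to IL-10/2-Trikine was 1.54 (1.504 to 1.57). Naive-like T cells aside, which gave 10 Pdcd1 UMIs with IL-10/2-Trikine, the first difference was largest in Ly6c2-led CD8 cells, where the ratio was 2.35 (2.15 to 2.58). It was not detectable at this depth in Csf1-led CD4 cells at 1.04 (0.955 to 1.14), in cycling CD4 cells at 0.995 (0.903 to 1.10) and in heat shock-led CD4 cells at 1.05 (0.805 to 1.38). In 6 of 9 alpha-beta subsets the interval of that ratio lay above 1, and in none below. For the combination over IL-10/2-Trikine it lay above 1 in all 8 subsets with at least 20 UMIs in the pair, with ratios from 1.17 in Ly6c2-led CD8 cells to 1.60 in heat shock-led CD4 cells. The share of T cell-like cells with a Pdcd1 UMI was 10.4% (9.67 to 11.1), 16.8% (16.1 to 17.7) and 24.2% (23.3 to 25.0), against 0.870, 0.627 and 2.64% of KP1 tumor cell-like and 0.727, 0.905 and 1.45% of neutrophil-like cells. Without thinning it was 31.0, 52.2 and 58.7%. The antibody acts on PD-1 protein, which was not measured here.

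The stretch of 250 bases before the annotated start of Pdcd1 is shown because the gene encodes the antibody's target and its level differed in every pair of libraries, with capitals marking the NFAT core motif GGAAA read on either strand. NFAT is the factor that calcium signaling from the T cell receptor brings into the nucleus. The window lies at chr1:94052554-94052803 on the minus strand of GRCm38.p6 (RefSeq), and is printed 5′ to 3′ in the direction of transcription.
Pdcd1: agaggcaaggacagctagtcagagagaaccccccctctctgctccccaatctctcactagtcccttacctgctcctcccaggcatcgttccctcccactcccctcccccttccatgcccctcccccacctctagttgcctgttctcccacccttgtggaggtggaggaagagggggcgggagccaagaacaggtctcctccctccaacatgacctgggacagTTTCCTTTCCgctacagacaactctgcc
The 2 matches begin 28 and 23 bases before the start. The same 5 letters occur on either strand in 55.7% of 32536 windows of this length, so the match describes the sequence and no binding was measured.

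Lag3, the MHC class II receptor, was likewise highest in Csf1-led CD4 cells, at 649 (621 to 678), 483 (459 to 509) and 509 (495 to 523) CPM, followed in every library by Calcb-led CD8 cells at 290.0, 181 and 346 CPM. The intervals of these 2 subsets did not overlap each other or those of any lower one. Then came heat shock-led CD4 cells with 234, 107 and 184 CPM, regulatory T-like cells with 198, 153 and 210.2 CPM and cycling CD4 cells with 185, 79.4 and 138 CPM, while plasmacytoid DC-like cells, which are known to carry LAG-3, had 206, 123 and 169 CPM. Ly6c2-led CD8 cells with 75.0, 76.4 and 80.8 CPM, NK cell-like cells with 63.8, 69.5 and 73.7 CPM and gamma-delta T-like cells with 65.2, 62.2 and 79.0 CPM lay at or below the empty droplets (83.9, 82.5 and 111 CPM), though above KP1 tumor cell-like cells.

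Lag3 was lowest with IL-10/2-Trikine over all T cell-like cells, by a margin that was smaller without cells holding a UMI of Mki67, a gene of dividing cells. Over all T cell-like cells it measured 203 (199 to 207), 115 (113 to 118) and 219.5 (216 to 223) CPM, a ratio of 0.568 (0.552 to 0.585) for IL-10/2-Trikine over mono-IL-10 and of 1.90 (1.86 to 1.95) for the combination over IL-10/2-Trikine. In the 5748, 4529 and 6825 T cell-like cells in which Mki67 had no UMI, Lag3 was 214, 193 and 309 CPM, and these ratios became 0.904 and 1.60, so the first was then under 1.5-fold and the mono-IL-10 level lay nearer to IL-10/2-Trikine than to the combination. Here and below, the cut on Mki67 was made without thinning, so it leaves out deeper cells more readily. Division and depth were not told apart by it. The first ratio was 0.429 (0.387 to 0.478) in cycling CD4 cells, 0.457 (0.360 to 0.581) in heat shock-led CD4 cells, 0.506 (0.415 to 0.613) in Lrig1-led CD4 cells and 0.625 (0.590 to 0.663) in Calcb-led CD8 cells. Without cells holding a Mki67 UMI these 4 were 0.430, 0.705, 0.557 and 0.720. The first ratio was 1.02 (0.914 to 1.14) in Ly6c2-led CD8 cells and 1.26 (1.03 to 1.54) in cycling CD8 cells, the single subset with an interval above 1. In all, 6 of 9 subsets had an interval below 1. For the combination over IL-10/2-Trikine, 6 of 8 measured subsets had an interval above 1 and none below, with the highest ratio in Calcb-led CD8 cells at 1.91 (1.80 to 2.02). The share of T cell-like cells with a Lag3 UMI was 14.8, 11.5 and 18.9% (38.1, 44.4 and 52.5% unthinned), beside 2.17, 0.627 and 2.64% of KP1 tumor cell-like cells. The unthinned share, which does not have the depth of the cells held equal, was higher with IL-10/2-Trikine than with mono-IL-10, opposite to the CPM, and no order is read from it.

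Havcr2, which encodes TIM-3, was shared between lymphocytes and myeloid cells. Among T subsets Csf1-led CD4 cells led with 388, 388 and 438 CPM, ahead of Calcb-led CD8 cells with 254, 189 and 198 CPM, cycling CD4 cells with 189.5, 161 and 216 CPM and heat shock-led CD4 cells with 154, 178 and 241 CPM. Regulatory T-like cells held 136, 137 and 145 CPM and cycling CD8 cells 118, 154 and 137 CPM. Conventional type 1 DC (cDC1)-like cells, a cell type in which TIM-3 is well known, had 268, 259 and 389 CPM and cDC2-like cells 134, 172 and 277 CPM. The cDC1-like ratios were 0.966 (0.842 to 1.11) and 1.504 (1.27 to 1.77), and 1.30 and 1.09 with called doublets removed. Macrophage-like cells with 135, 129 and 126 CPM and monocyte-like cells with 126, 159.7 and 136 CPM were near the empty droplets at 131, 111 and 135 CPM. Ly6c2-led CD8 cells (46.5, 46.3 and 43.3 CPM), gamma-delta T-like cells (43.3, 59.0 and 49.1 CPM), Lrig1-led CD4 cells (24.5, 24.3 and 34.8 CPM) and NK cell-like cells (23.3, 29.1 and 23.0 CPM) lay around or below B cell-like cells (67.8, 45.9 and 60.8 CPM), the class used as background for this gene.

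In T cell-like cells Havcr2 was 152 (148 to 156), 151 (149 to 154) and 201 (198 to 204) CPM. The ratio of IL-10/2-Trikine to mono-IL-10 was 0.997 (0.968 to 1.03), and its direction depended on the scaling and on the cells taken, with 1.12 by TMM factors, 1.14 by median-of-ratios factors, 0.931 under a marker gate per cell and 0.909 with the 9 subsets held to 1 common mix. The combination stood above IL-10/2-Trikine at 1.33 (1.30 to 1.36). The subsets were mixed for the first comparison, with 1 interval above 1 and 2 below, among them Calcb-led CD8 cells at 0.744 (0.701 to 0.788). For the second, 4 of 8 intervals lay above 1 and 1 below, and the highest ratios were 1.43 (1.04 to 1.997) in Lrig1-led CD4 cells and 1.35 (1.15 to 1.60) in heat shock-led CD4 cells. The share of T cell-like cells with a Havcr2 UMI was 9.26, 11.2 and 14.2% (27.9, 43.2 and 43.2% unthinned), beside 3.04, 2.33 and 3.98% of B cell-like cells. No order is read between the first 2 of these shares, since the CPM gives none. Outside T cells, cDC2-like cells had ratios of 1.28 (1.12 to 1.48) and 1.61 (1.43 to 1.82) for the 2 comparisons.

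Tigit gave the fewest UMIs of the receptors. Regulatory T-like cells with 60.8 (53.1 to 69.4), 59.6 (55.1 to 64.4) and 67.9 (63.4 to 72.6) CPM and Csf1-led CD4 cells with 56.0 (47.9 to 64.9), 68.1 (59.1 to 78.1) and 75.3 (70.1 to 80.9) CPM were the highest populations, and their intervals overlapped in each library. Lrig1-led CD4 cells had 40.1, 29.7 and 48.2 CPM, heat shock-led CD4 cells 50.1, 40.5 and 40.7 CPM, Calcb-led CD8 cells 38.8, 24.3 and 46.9 CPM and Ly6c2-led CD8 cells 32.7, 25.8 and 30.5 CPM. Cycling cells were lower, with 19.9, 18.9 and 27.9 CPM in CD4 and 15.4, 15.6 and 19.5 CPM in CD8 cells. Empty droplets held 14.8, 38.0 and 23.7 CPM, and with IL-10/2-Trikine the 2 cycling, Calcb-led, Ly6c2-led and Lrig1-led subsets and the T cell-like cells as a whole were all below that level. Over all T cell-like cells the level was 36.7 (34.9 to 38.5), 27.7 (26.6 to 28.9) and 44.8 (43.3 to 46.3) CPM, with ratios of 0.756 (0.709 to 0.807) for IL-10/2-Trikine over mono-IL-10 and 1.61 (1.53 to 1.70) for the combination over IL-10/2-Trikine. The lowest level was in the library whose empty droplets held the most Tigit, and the part of free RNA in these ratios was not tested. Without cells holding a Mki67 UMI the order turned, with Tigit at 41.9, 44.1 and 59.4 CPM and ratios of 1.05 and 1.35. Calcb-led CD8 cells showed the widest differences, 0.625 (0.531 to 0.733) and 1.93 (1.64 to 2.28). The share of T cell-like cells with a UMI was 3.86, 3.34 and 4.94% (17.3, 19.4 and 24.0% unthinned), against 0.217% and 0.695% of KP1 tumor cell-like cells in the libraries other than IL-10/2-Trikine. There 0 of 797 such cells had one, which allows a share of up to 0.376%.

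Ctla4, the CD80 and CD86 receptor, led in regulatory T-like cells with 1627 (1586 to 1669), 1863 (1837 to 1889) and 1656 (1634 to 1678) CPM and in Csf1-led CD4 cells with 1289.6 (1249.9 to 1330.3), 1976 (1926 to 2026) and 1835 (1809 to 1861) CPM. Regulatory T-like cells were first in the mono-IL-10 library, and Csf1-led CD4 cells in the others, with intervals that did not overlap. Heat shock-led CD4 cells had 1039, 1149.5 and 1423 CPM, Calcb-led CD8 cells 699.6, 723 and 869.8 CPM, cycling CD4 cells 619.9, 557 and 675 CPM and Lrig1-led CD4 cells 536, 586 and 532 CPM. ILC2-like cells, innate lymphocytes with type 2 cytokines, had 815, 649 and 602 CPM. Ly6c2-led CD8 cells (324, 358 and 350.3 CPM), gamma-delta T-like cells (237, 326 and 321 CPM) and NK cell-like cells (231, 313 and 233 CPM) were near or below the empty droplets (286, 522 and 417 CPM) yet above neutrophil-like cells (115, 159.7 and 97.5 CPM).

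Over all T cell-like cells Ctla4 was 665 (658 to 673), 773 (767 to 779) and 989 (982 to 996) CPM, with ratios of 1.16 (1.15 to 1.18) and 1.28 (1.27 to 1.29). Both are under 1.5-fold, although in cells with no Mki67 UMI they were 1.64 and 1.11. Csf1-led CD4 cells had the highest first ratio, 1.53 (1.47 to 1.59), followed by a second ratio of 0.929 (0.902 to 0.956), and regulatory T-like cells had 1.14 (1.11 to 1.18) and 0.889 (0.872 to 0.906). For IL-10/2-Trikine over mono-IL-10, 7 of 9 intervals lay above 1 and 1 below. The second comparison was evenly divided, with 4 above and 4 below among 9. Regulatory T-like cells numbered 424, 1164 and 1328 and held 11.9, 20.8 and 22.8% of the Ctla4 UMIs in kept cells. A Ctla4 UMI was found in 72.4, 77.8 and 72.2% of them (85.4, 97.5 and 93.5% unthinned) and in 34.4, 43.9 and 48.4% of all T cell-like cells (63.0, 79.8 and 78.4% unthinned), beside 5.43, 3.39 and 5.56% of KP1 tumor cell-like cells.

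**Figure D2:**
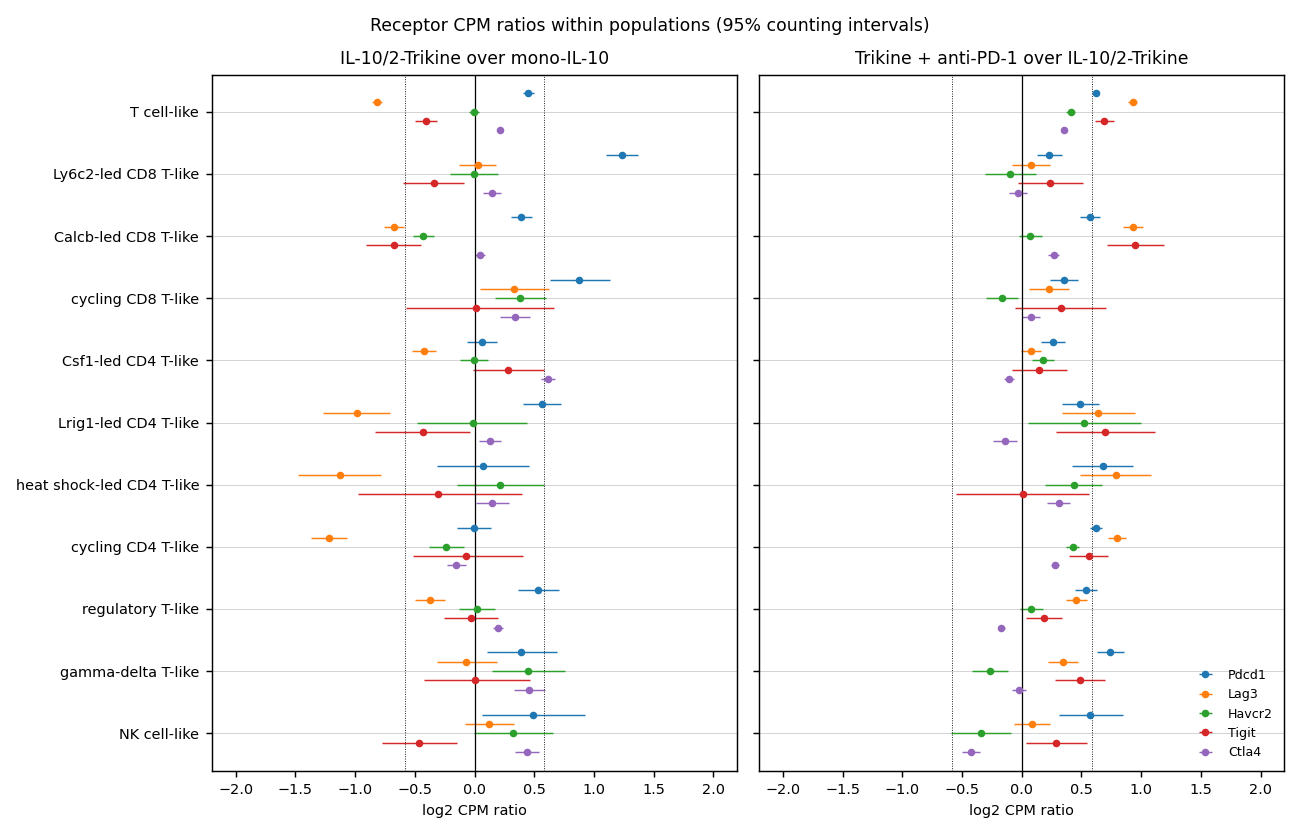
Log2 CPM ratios of the 5 receptor genes by lymphocyte population for IL-10/2-Trikine over mono-IL-10 and for Trikine + anti-PD-1 over IL-10/2-Trikine. Points are ratios and bars are exact conditional binomial 95% intervals for counting error. Most Pdcd1 points lie above 0 in both comparisons, while Lag3 points lie mostly below 0 in the first and above 0 in the second.

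The count of receptors past 1.5-fold in T cell-like cells depended on which cells were taken. For IL-10/2-Trikine over mono-IL-10 none of the 5 was higher by that much, where 9.54% of 15351 genes were, and 1 of 5 (Lag3) was lower, where 21.8% were. With TMM or median-of-ratios factors Pdcd1 also passed upward, and in cells with no Mki67 UMI 2 were higher (Pdcd1 at 1.78 and Ctla4 at 1.64) and 0 lower. For Trikine + anti-PD-1 over IL-10/2-Trikine, 3 of 5 (Pdcd1, Lag3 and Tigit) were at least 1.5-fold higher against 8.79% of 15540 genes, and none was lower against 5.73%. Of these 3, Lag3 and Tigit passed with TMM or median-of-ratios factors, Lag3 alone passed in cells with no Mki67 UMI (Pdcd1 1.45, Tigit 1.35), and 0 of 5 passed with the 9 subsets held to 1 common mix in every library (Pdcd1 1.39, Lag3 1.44, Tigit 1.32), a setting chosen after seeing the data. The median log2 ratio of the 5 receptors was -0.0045 and then 0.62. Scaled by TMM factors or by median-of-ratios factors in place of totals, the first was 0.17 or 0.19. The plot of receptor ratios by population shows that this median joins unlike genes in the first comparison, since Pdcd1 and Lag3 differed in opposite directions.

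The make-up of the T cell-like cells also differed between libraries. Cycling CD4 cells numbered 190, 1825 and 1915, Csf1-led CD4 cells 465, 503 and 1557, Ly6c2-led CD8 cells 2271, 2366 and 2408 and Calcb-led CD8 cells 1814, 980 and 1729. With the 9 subsets held to 1 common mix in every library (each subset weighted by its share of the pooled UMIs), a setting chosen after seeing the data, Pdcd1 came to 156, 196 and 273 CPM, Lag3 to 209.6, 137 and 197 CPM, Havcr2 to 170.0, 155 and 177 CPM, Tigit to 34.3, 30.9 and 40.7 CPM and Ctla4 to 755, 846 and 866 CPM. Pdcd1 kept the same order of libraries and Lag3 was then lower in the combination than with mono-IL-10. All 5 ratios of the combination to IL-10/2-Trikine were smaller than in the cells as they were, with Havcr2 at 1.15 and Ctla4 at 1.02, and none reached 1.5-fold. Csf1-led CD4 cells supplied 13.1, 9.31 and 24.4% of all Lag3 UMIs in kept cells, and Calcb-led CD8 cells 28.8, 9.99 and 16.6%. Cycling CD4 cells supplied 4.52, 27.8 and 27.6% of the Pdcd1 UMIs.

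NK cell-like cells, of which there were 913, 1782 and 2463, and gamma-delta T-like cells (379, 3005 and 1378) were measured apart from the alpha-beta subsets. In NK cell-like cells no receptor passed 1.5-fold in either direction for IL-10/2-Trikine over mono-IL-10, where 9.19% of 11193 genes were higher and 11.7% lower by that much. None did for the combination over IL-10/2-Trikine, where 6.19% of 11706 genes were higher and 7.05% lower. The Pdcd1 ratios of 1.40 (1.05 to 1.90) and 1.49 (1.24 to 1.80) lay near that fold and crossed it under some settings, with levels of 10.9, 11.7 and 22.4 CPM without called doublets, 8.37, 11.1 and 17.1 CPM at the finer clustering and 3.55, 9.77 and 7.18 CPM under a marker gate per cell, all below the empty droplets. Tigit, a receptor known on NK cells, had 31.5 (26.4 to 37.1), 22.8 (19.9 to 26.0) and 27.9 (24.8 to 31.3) CPM there, above the KP1 tumor cell-like background and above cycling CD8 cells, but below empty droplets in the IL-10/2-Trikine library. Ctla4 ratios in these cells were 1.35 (1.26 to 1.46) and 0.744 (0.705 to 0.784), and Lag3 ratios 1.09 (0.946 to 1.26) and 1.06 (0.956 to 1.18). The cluster called gamma-delta T-like holds as many NK cell markers as gamma-delta markers above the naming threshold (4 of each), and Klra6, Klra5 and Klra1, genes of an NK receptor family, lead it ahead of Trdc. Its 10 NK cell markers summed to 4574, 14577 and 9502 CPM and its T cell markers to 4730.2, 4396 and 4827 CPM, and their part in its values was not tested. Its cells had a Pdcd1 ratio of 1.67 (1.54 to 1.81) for the combination over IL-10/2-Trikine with an interval that overlaps that of heat shock-led CD4 cells, the highest alpha-beta subset, and of 1.21 in cells with no Mki67 UMI.

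Receptors were also counted per cell. At 1000 UMIs per cell, at least 1 of the 5 was detected in 50.2, 60.7 and 69.4% of T cell-like cells, at least 2 in 17.8% (16.9 to 18.7), 20.9% (20.05 to 21.8) and 30.5% (29.6 to 31.5) and at least 3 in 4.08, 4.46 and 9.01%. Without thinning, at least 2 were detected in 49.7, 70.1 and 72.3% of these cells. The log2 ratio of the thinned share was 0.23 for IL-10/2-Trikine over mono-IL-10 and 0.55 for the combination over IL-10/2-Trikine, and 0.0574 and 0.26 with the 9 subsets held to 1 common mix by their shares of the pooled cells. The share with at least 2 was highest in Csf1-led CD4 cells, at 54.7, 57.8 and 59.4%, and high in Calcb-led CD8 cells, at 34.6, 28.9 and 40.5%. Regulatory T-like cells had 25.9, 31.4 and 34.1%, cycling CD4 cells 22.9, 20.8 and 29.9% and heat shock-led CD4 cells 24.0, 26.1 and 36.8%. Regulatory T-like cells were above Calcb-led CD8 cells with IL-10/2-Trikine and below heat shock-led CD4 cells in the combination. Lrig1-led CD4 cells had 11.3, 11.7 and 14.0%, cycling CD8 cells 9.92, 16.4 and 17.3% and Ly6c2-led CD8 cells 5.95, 8.97 and 9.44%. In NK cell-like cells the share was 1.77, 2.52 and 2.91% and in gamma-delta T-like cells 4.46, 5.11 and 5.46%, beside a background of 1.09, 1.36 and 2.90% in neutrophil-like and 0.870, 0.627 and 2.09% in KP1 tumor cell-like cells. Among naive-like T cells it was 1.25% with mono-IL-10.

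**Figure D3:**
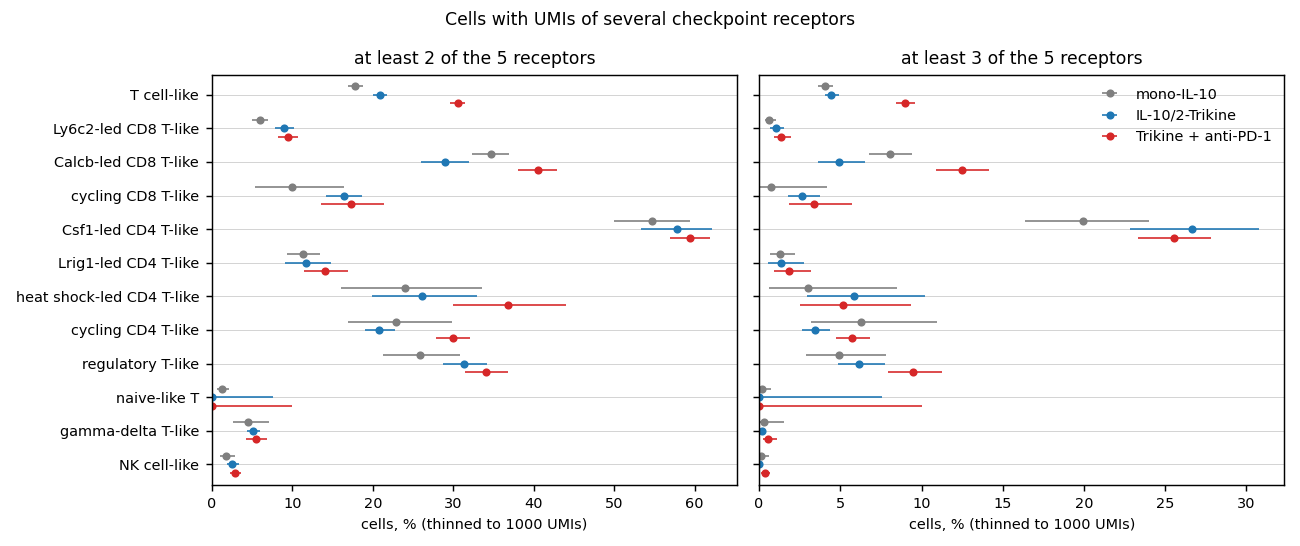
Percentage of cells with UMIs of at least 2 and at least 3 of the 5 receptor genes after thinning to 1000 UMIs, by population and library. Bars are exact binomial 95% intervals for counting error. Csf1-led CD4 cells lead with 54.7 to 59.4% for at least 2 receptors. The background classes, neutrophil-like and KP1 tumor cell-like cells, are not drawn.

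In 8 of 10 receptor pairs, the second gene was detected more often in T cell-like cells with the first than in the rest in all 3 libraries. The exceptions both held Tigit: with Pdcd1, 3.82, 2.85 and 5.31% had a Tigit UMI against 3.87, 3.45 and 4.83% of the rest, and with Havcr2, 4.74, 5.31 and 4.88% against 3.77, 3.10 and 4.95%. Among T cell-like cells with a Lag3 UMI, 19.8, 19.8 and 23.7% also had a Havcr2 UMI, compared with 7.42, 10.1 and 12.0% of those without one. For Pdcd1 and Lag3, 27.4, 14.4 and 23.1% of Pdcd1-bearing cells had a Lag3 UMI against 13.3, 10.9 and 17.5% of the rest, and both were seen in 2.84, 2.43 and 5.60% of cells. These shares mix subsets that differ in both genes, and cells of 1 library are not replicates.

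Other receptors that inhibit T cells did not follow a single direction. Of 12 measured in T cell-like cells, 0 were at least 1.5-fold higher and 3 lower for IL-10/2-Trikine over mono-IL-10, with a median log2 ratio of -0.39 beside -0.17 over all genes and against 9.54% of all genes higher and 21.8% lower, a share near that of the list. The lowest were Ceacam1, a TIM-3 partner (-1.53), and Cd101 (-0.94), and the highest were Cd200r1 (0.30) and Cd244a (0.12). For the combination over IL-10/2-Trikine 2 were higher and 1 lower of 11, against 8.79% and 5.73% of all genes, with a median of 0.25. Pvrig (0.70) and Entpd1, the ectoenzyme CD39 (0.69), were highest, and Klrg1 (-0.62) and Lair1 (-0.51) lowest.

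The stimulatory partners gave 1 gene higher and 2 lower of 8 in the first comparison (median -0.32), near the 9.54% and 21.8% of all genes, and 2 higher and 0 lower in the second (median 0.48), against 8.79% and 5.73%. Cd226, the activating counterpart of TIGIT, was 163 CPM with mono-IL-10 and 81.6 CPM with IL-10/2-Trikine, and Cd27 was 207 CPM with mono-IL-10 and 135 CPM with IL-10/2-Trikine. Tnfrsf4 (OX40) stood the other way, at 148 CPM with mono-IL-10 and 238 CPM with IL-10/2-Trikine, and reached 369.7 CPM with the combination. Proteins that carry PD-1 and CTLA-4 signals gave 0 higher and 3 lower of 12 (median -0.35), likewise near the 21.8% lower over all genes, with the adaptors Trat1 (-1.47) and Lax1 (-0.94) lowest, and 0 of 12 either way in the second comparison (median 0.10).

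Transcription factors that control these receptors gave 1 higher and 5 lower of 15 for IL-10/2-Trikine over mono-IL-10 (median -0.40), against 9.54% and 21.8% of all genes. Eomes, a T-box factor of effector and exhausted CD8 cells, was 79.5 CPM with mono-IL-10 and 22.5 CPM with IL-10/2-Trikine, and Tox2, a relative of the exhaustion factor TOX, was 17.1 CPM with mono-IL-10 and 2.84 CPM with IL-10/2-Trikine. Foxp3, the regulatory T cell factor, was highest (0.61), in a library whose T cell-like cells held more regulatory cells. For the combination over IL-10/2-Trikine, 3 were higher and 0 lower (median 0.26) against 8.79% and 5.73%, among them Tox2 (1.53) and Maf, which was 121 CPM with IL-10/2-Trikine and 201 CPM with the combination. In NK cell-like cells the same list gave 1 higher and 7 lower of 14, against 9.19% and 11.7% of all genes (median -0.53, beside -0.09 over all genes), with Prdm1 (-1.46) and Irf4 (-1.34) lowest, and then 1 higher and 0 lower (median 0.21), against 6.19% and 7.05%.

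Cd274, the PD-L1 gene, was highest outside the macrophages. Neutrophil-like cells had 1391 (1315 to 1471), 1409 (1351 to 1468) and 1350.4 (1199.7 to 1515) CPM, above every other population in each library, with intervals that overlap among the 3. Mature DC-like cells, the migratory DC state, followed with 959 (859.9 to 1066), 428 (386 to 473) and 913 (819 to 1014) CPM, then monocyte-like cells with 423, 416 and 509 CPM, cDC2-like cells with 428, 320.1 and 418 CPM and macrophage-like cells with 285, 248 and 299.5 CPM. The mature DC-like and monocyte-like intervals overlapped with IL-10/2-Trikine. In cDC1-like cells the level was 129, 98.3 and 109.5 CPM, below the empty droplets (198, 124 and 149 CPM). KP1 tumor cell-like cells had 59.6 (53.0 to 66.8), 34.2 (30.7 to 38.0) and 43.8 (39.0 to 48.9) CPM, also below the empty droplets, as were T cell-like cells (93.5, 62.0 and 96.5 CPM) and NK cell-like cells (134, 94.7 and 121 CPM). These tumor cells had passed a CD45+ sort, so they are not a sample of the tumor. By number, macrophage-like cells held 26.1, 9.89 and 22.7% and monocyte-like cells 20.9, 19.6 and 22.7% of the Cd274 UMIs in kept cells.

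**Figure D4:**
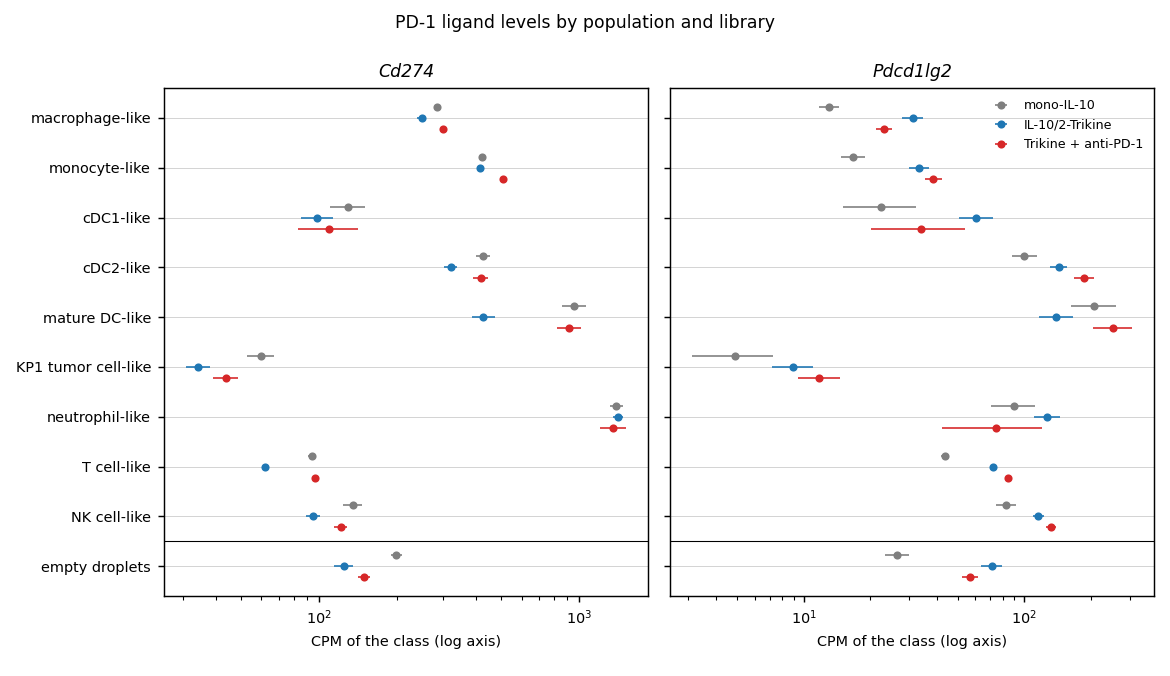
Levels of Cd274 and Pdcd1lg2 by population and library, in CPM on a log scale, with exact 95% Poisson intervals for counting error. Neutrophil-like cells lead Cd274 at 1350.4 to 1409 CPM in all libraries, and mature DC-like and cDC2-like cells are high for Pdcd1lg2, while KP1 tumor cell-like cells are low for both.

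In macrophage-like and monocyte-like cells together Cd274 measured 333 (328 to 338), 339 (331 to 347) and 377 (371 to 384) CPM. The ratio was 1.02 (0.990 to 1.05) for IL-10/2-Trikine over mono-IL-10, which includes no difference, and 1.11 (1.08 to 1.14) for the combination over IL-10/2-Trikine. Taken apart, macrophage-like cells had ratios of 0.872 (0.833 to 0.912) and 1.21 (1.15 to 1.26), and monocyte-like cells 0.984 (0.948 to 1.02) and 1.22 (1.18 to 1.27). Macrophage-like cells numbered 4142, 1820 and 4273 and monocyte-like cells 1869, 1815 and 1788, so the joint level is a mix whose parts differ between libraries. Of the cells in the joint class 24.3, 26.8 and 27.5% had a Cd274 UMI (67.3, 62.6 and 64.0% unthinned), and of neutrophil-like cells 65.8, 62.2 and 53.6% (79.2, 73.9 and 58.4% unthinned).

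Among the macrophage-like, monocyte-like, cDC1-like, cDC2-like, mature DC-like and KP1 tumor cell-like populations the widest Cd274 differences were in mature DC-like cells, at 0.446 (0.385 to 0.518) and 2.13 (1.84 to 2.47). This population held only 46, 66 and 52 cells, 40.9% of them called doublets in the IL-10/2-Trikine library, and their T cell markers summed to 1311, 3942 and 1447 CPM. With called doublets removed, the log2 ratios were -0.34 and 0.24 in place of -1.16 and 1.09, under 1.5-fold both times. In cDC2-like cells the ratios were 0.747 (0.684 to 0.816) and 1.31 (1.19 to 1.43), and in KP1 tumor cell-like cells 0.574 (0.490 to 0.674) and 1.28 (1.09 to 1.496), the latter 1.69 with called doublets removed. Across these 6 populations, 5 intervals lay below 1 in the first comparison and 5 above 1 in the second. Plasmacytoid DC-like cells, with 73, 68 and 68 Cd274 UMIs, were not among the 6, and their ratios were 0.652 (0.462 to 0.920) and 1.40 (0.982 to 1.98), the first of them 0.388 in cells with no Mki67 UMI. Empty droplets held more Cd274 with mono-IL-10 than with IL-10/2-Trikine (198, 124 and 149 CPM), and the part of free RNA in these ratios was not tested.

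Mast cell/basophil-like cells aside, of which no library held more than 11, Pdcd1lg2, the PD-L2 gene, was highest in mature DC-like cells with 207 (162 to 259.7), 139.7 (116 to 166) and 253 (205 to 308) CPM and in cDC2-like cells with 99.9 (87.5 to 114), 143 (130.04 to 157) and 186 (168 to 206) CPM, and their intervals were separate with mono-IL-10 alone. Neutrophil-like cells had 89.3, 127 and 74.2 CPM. Macrophage-like cells with 13.01, 31.2 and 23.1 CPM, monocyte-like cells with 16.8, 33.3 and 38.6 CPM and KP1 tumor cell-like cells with 4.86, 8.90 and 11.8 CPM were all below empty droplets (26.6, 71.3 and 56.5 CPM). NK cell-like cells had been set as the background class for this gene, yet they held 82.4 (74.1 to 91.3), 116 (109 to 123) and 132 (125 to 139) CPM, above the empty droplets and above most populations. Lrig1-led CD4 cells with 81.8, 121 and 127 CPM, regulatory T-like cells with 67.4, 112 and 122 CPM, cycling CD4 cells with 84.8, 86.4 and 95.5 CPM and gamma-delta T-like cells with 78.0, 78.4 and 104 CPM were likewise above empty droplets. The 9 macrophage markers summed to 78.5, 28.8 and 78.0 CPM in NK cell-like cells and to 9754, 6319.6 and 9522 CPM in macrophage-like and monocyte-like cells, whose own Pdcd1lg2 level was lower. A Pdcd1lg2 UMI was found in 8.30, 10.6 and 12.0% of NK cell-like cells (26.5, 36.3 and 32.3% unthinned) and in 1.32, 2.76 and 2.19% of macrophage-like and monocyte-like cells (7.85, 12.2 and 11.0% unthinned).

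In macrophage-like and monocyte-like cells Pdcd1lg2 was 14.3 (13.2 to 15.5), 32.3 (29.96 to 34.8) and 28.9 (27.1 to 30.7) CPM, a ratio of 2.25 (2.02 to 2.51) for IL-10/2-Trikine over mono-IL-10. Empty droplets gave 26.6, 71.3 and 56.5 CPM, highest in the same library, and T cell markers in these cells 232, 432 and 225 CPM with all 10 detected. Of the 8 stimulatory receptors, which T cells carry, 7 were at least 1.5-fold higher in these cells and none lower (median log2 ratio 1.17), against 8.74% and 8.23% of all genes, and then 0 higher and 8 lower (-0.97), against 7.01% and 7.11%. The part of T cell RNA in these differences was not tested. In cells with no UMI of any T cell marker, a setting chosen after seeing the data, the log2 ratio was 1.002 in place of 1.17. The combination over IL-10/2-Trikine was 0.893 (0.811 to 0.984), a direction that turned without called doublets (log2 ratio 0.0736) and without cells holding a T cell marker UMI (0.19). Taken apart, macrophage-like cells had ratios of 2.40 (2.05 to 2.79) and 0.742 (0.643 to 0.857), and monocyte-like cells 1.98 (1.69 to 2.33) and 1.16 (1.02 to 1.33), so the second comparison ran in opposite directions in them. Among DCs, cDC2-like cells had ratios of 1.43 (1.22 to 1.68) and 1.31 (1.14 to 1.4997), cDC1-like cells 2.70 (1.79 to 4.19) and 0.561 (0.322 to 0.924), and mature DC-like cells 0.675 (0.503 to 0.912) and 1.81 (1.37 to 2.38). In cDC1-like cells the 10 NK cell markers summed to 775, 2949 and 102 CPM and the 10 T cell markers to 2004, 2458 and 1575 CPM, both highest with IL-10/2-Trikine as Pdcd1lg2 was, 20.2, 39.7 and 0% were called doublets, and the part of other cells' RNA was not tested. With called doublets removed, the ratios were 2.68 and 0.965 in cDC1-like and 0.883 and 1.28 in mature DC-like cells. NK cell-like cells had 1.41 (1.25 to 1.59) and 1.14 (1.05 to 1.23), and regulatory T-like cells 1.66 (1.44 to 1.91) and 1.09 (1.01 to 1.18).

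**Figure D5:**
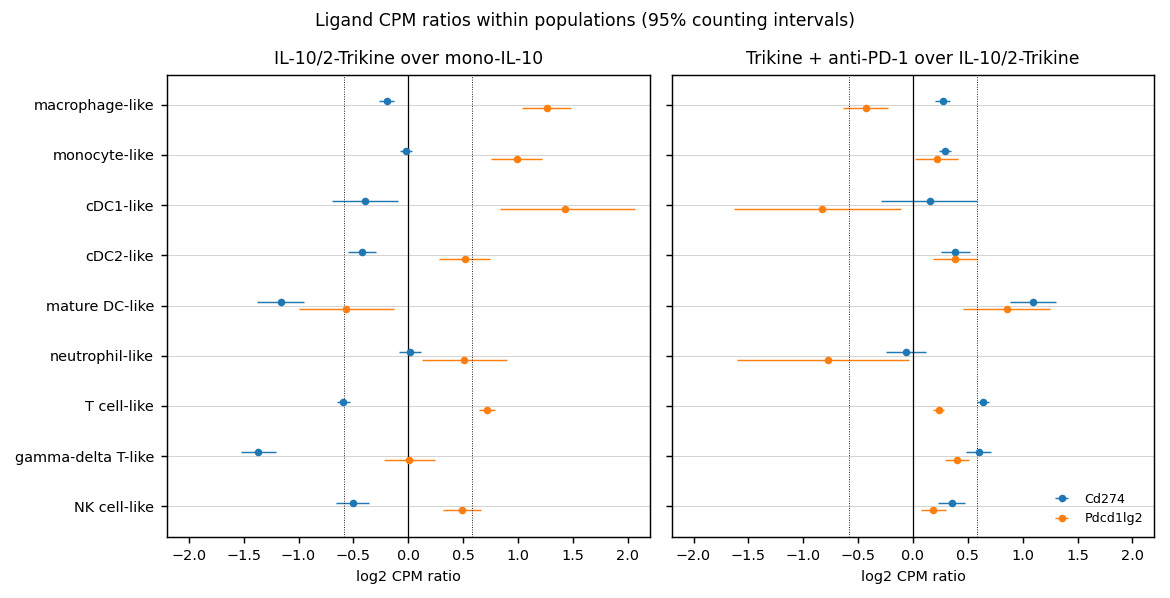
Log2 CPM ratios of Cd274 and Pdcd1lg2 by population for IL-10/2-Trikine over mono-IL-10 and for Trikine + anti-PD-1 over IL-10/2-Trikine. Bars are exact conditional binomial 95% intervals for counting error, and dotted lines mark 1.5-fold either way. Cd274 points lie mostly below 0 and then above 0, while Pdcd1lg2 points lie mostly above 0 in the first comparison.

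Of the ligands, 1 of 2 (Pdcd1lg2) was at least 1.5-fold higher in macrophage-like and monocyte-like cells for IL-10/2-Trikine over mono-IL-10, where 8.74% of 14415 genes were and 8.23% were lower by that much. Neither passed that fold for the combination over IL-10/2-Trikine, where 7.01% of 14201 genes were higher and 7.11% lower. In the first comparison the Cd274 ratio was below 1 and the Pdcd1lg2 ratio above 1 in 5 of the same 6 populations. The plot of ligand ratios draws these populations except KP1 tumor cell-like cells. In plasmacytoid DC-like cells the Pdcd1lg2 ratios were 1.40 (0.7997 to 2.53) and 0.872 (0.507 to 1.47), the first of them 0.321 in cells with no Mki67 UMI. UMIs of both ligands were found in 0.333, 0.527 and 0.608% of macrophage-like, 5.58, 5.30 and 9.09% of cDC2-like and 5.45, 10.6 and 1.45% of neutrophil-like cells. In mature DC-like cells the share was 13.5, 10.7 and 4.35%, which rests on 5, 6 and 2 cells.

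The ligand genes are neighbors on chromosome 19 with no protein-coding gene between them in RefSeq. The 250 bases before each annotated start are printed so that the neighboring windows can be set side by side. In the first comparison the ratios of the 2 genes were not uniformly opposed. Cd274 was at 1.02 in macrophage-like and monocyte-like cells, both genes were below 1 in mature DC-like cells, and with called doublets removed both were below 1 in KP1 tumor cell-like cells (0.606 and 0.866). Both lie on the plus strand of GRCm38.p6, Cd274 at chr19:29367188-29367437 and Pdcd1lg2 at chr19:29410669-29410918, and the first of these windows falls inside the annotated span of its gene. Capitals mark matches to GGAAA (NFAT core) or GGGA, 4 free bases and CC (NF-kappaB, a factor of inflammatory signaling) on either strand.
Cd274: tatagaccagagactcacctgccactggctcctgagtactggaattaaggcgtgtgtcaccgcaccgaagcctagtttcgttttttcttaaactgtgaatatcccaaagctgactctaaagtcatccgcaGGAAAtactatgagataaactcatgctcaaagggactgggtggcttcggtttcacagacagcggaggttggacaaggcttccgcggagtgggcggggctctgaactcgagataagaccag
Pdcd1lg2: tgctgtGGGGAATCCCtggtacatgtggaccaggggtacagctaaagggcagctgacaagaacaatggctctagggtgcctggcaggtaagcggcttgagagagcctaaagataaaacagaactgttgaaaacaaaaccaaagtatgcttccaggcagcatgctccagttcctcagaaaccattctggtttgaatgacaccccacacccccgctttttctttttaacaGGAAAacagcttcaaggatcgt
Cd274 had 1 NFAT core 120 bases before the start. Pdcd1lg2 had 1 NFAT core 22 bases before it and an NF-kappaB match beginning 244 bases before it, a motif found in 17.7% of 32536 windows. Neither window, nor those of the other 4 members in the table, held TTCNNNGAA (GAS, an interferon response element, in 7.04% of windows) or GAAA, 2 free bases and GAAA (IRF, in 2.98%), which says only that these letters are not in these stretches. The AP-1 motif TGANTCA, in 6.73% of windows, occurred once among the members, 200 bases before the start of Havcr2.

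Genes known to induce or stabilize PD-L1 were followed in the same cells. In macrophage-like and monocyte-like cells 2 were higher and 1 lower of 15 for IL-10/2-Trikine over mono-IL-10, near the 8.74% and 8.23% of all genes (median 0.11, beside -0.03 over all genes), and 0 higher and 2 lower for the combination over IL-10/2-Trikine, against 7.01% and 7.11%. Irf1, the interferon-induced factor that activates Cd274, was 322 CPM with mono-IL-10 and 609 CPM with IL-10/2-Trikine. Ifng transcripts, a product of T and NK cells, were 8.28 CPM with mono-IL-10 and 34.9 CPM with IL-10/2-Trikine in these cells, beside the T cell markers given above. In T cell-like cells the list gave 0 higher and 4 lower (median -0.29), near the 21.8% lower over all genes, and then 3 higher and 0 lower (median 0.35) against 8.79% higher. In NK cell-like cells the list gave 1 higher and 3 lower, against 9.19% and 11.7% of all genes, and then 3 higher and 0 lower, against 6.19% and 7.05%, and Ifng itself was 232 CPM with mono-IL-10 and 69.4 CPM with IL-10/2-Trikine.

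Ligands of the other receptors gave 3 higher and 1 lower of 8 in macrophage-like and monocyte-like cells, against 8.74% and 8.23% of all genes (median 0.18) and then 0 higher and 2 lower (median -0.25), against 7.01% and 7.11%. Cd80, a ligand of CTLA-4 that also binds PD-L1, was 30.7 CPM with mono-IL-10 and 52.7 CPM with IL-10/2-Trikine, and Nectin2, a TIGIT ligand, had a log2 ratio of -0.63. The MHC class II genes, whose products LAG-3 binds, gave 0 of 8 past 1.5-fold in these cells in both comparisons (medians -0.19 and 0.14). In T cell-like cells 0 were higher and 6 lower of 8, against 9.54% and 21.8% of all genes. Then 2 were higher and 0 lower, against 8.79% and 5.73%. NK cell-like cells gave 0 higher and 3 lower of 6, against 9.19% and 11.7%. Then 6 were higher and 0 lower of 8, against 6.19% and 7.05%. The part of other cells' RNA in these lymphocyte values was not tested. In conventional and mature DC-like cells together the ligand list gave 0 of 7 either way and then 0 higher and 1 lower, and the PD-L1 list 0 either way and then 1 higher and 1 lower. The MHC class II list there gave 0 higher and 1 lower of 8 (median -0.30) and then 0 either way (median 0.41). Of all genes in these cells, 8.01% of 11302 were higher and 8.67% lower, and then 7.5% of 11134 higher and 14% lower.

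Among all genes reaching 50 CPM in at least 1 point, the 3 whose log2(CPM + 1) profile was most like that of each receptor were found by Pearson correlation over 33 points, the 11 lymphocyte populations in 3 libraries. These points share libraries and depth, so the coefficients are descriptions. Nearest to Pdcd1 were Fam20a (0.86), Zdhhc2 (0.83) and Ptch1 (0.83), to Lag3 Crlf2 (0.95), Arf5 (0.92) and Ctsb (0.92) and to Havcr2 Sar1b (0.94), Zcrb1 (0.92) and Aldoa (0.92). Nearest to Tigit were Sirt2 (0.93), Mdfic (0.91) and F730043M19Rik (0.90) and to Ctla4 Capg (0.93), Sdcbp2 (0.92) and Ctsb (0.91). For the ligands, over 18 points of macrophage, monocyte, DC and tumor populations, the nearest to Cd274 were Cd40 (0.98), Stxbp3 (0.98) and Cflar (0.97), and to Pdcd1lg2 AA467197 (0.96), Il12rb2 (0.96) and Nr4a3 (0.95). Cd40, the receptor through which T cells license DCs, led the Cd274 list.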

How the data were processed

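Single-cell libraries had been made with the 10x 3' v3.1 kit. The deposited matrices hold whole UMI counts, 1 value for each gene and barcode, from the authors' run of Cell Ranger (version 8.0.0 per the file headers, another in the methods). The processing notes name build mm10 and the methods another, so the files' genes carry no coordinates here. Empty droplets were included.

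Cells needed 200 detected genes or more and no more than 20% mitochondrial UMIs, and were scaled to 10000 UMIs per cell and log-transformed. They were clustered without the members (scanpy 1.11.5, leidenalg 0.10.2, 2000 variable genes, 30 components, 20 neighbors, resolution 1; lymphocytes again on 1500 genes at 0.8). Clusters were named where at least 3 fixed markers of a class were 1.5-fold enriched and detected in 10% of cells, unless another class had more markers among the top 10 genes, the cluster was shallow without such a marker, or most of its cells were called doublets. A T cell-like cluster that met this rule was left out of the lymphocyte clustering for its low depth, as given above. UMIs were summed per population and library. Lists used genes with at least 20 UMIs in a pair. Versions were numpy 2.4.6, scipy 1.17.1, pandas 2.3.3, matplotlib 3.10.9, Python 3.11.15 and, for TMM, edgeR 4.0.16. Named genes were the members, the 2 highest and 2 lowest of each list, and the 3 most alike per member, with other list genes named for their role, and 1 list gene is not reported here by name. The ratios were tested on simulated Poisson counts with known fold changes, drawn from T cell-like sums. Those counts held no variation from mice, free RNA, doublets or clustering, so the test covers counting error alone. The members and lists were chosen with earlier results of these data known. Alternatives are given at the end.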

Additional observations from a re-analysis of the deposited data

Results flagged for a closer look

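Pdcd1lg2 differed in opposite directions in 2 dendritic cell populations for Trikine + anti-PD-1 over IL-10/2-Trikine. The log2 CPM ratio was 0.85 in mature DC-like cells, with levels of 139.7 CPM with IL-10/2-Trikine and 253 CPM with the combination, and -0.83 in cDC1-like cells, with 60.6 and 34.0 CPM. It drew attention because both counting intervals exclude equality on opposite sides. The difference between the 2 populations was not tested, since each group is 1 library. These libraries held 66 and 52 mature DC-like cells and 121 and 47 cDC1-like cells. With called doublets removed the log2 ratios were 0.36 and -0.05, both under 1.5-fold. The score threshold for a doublet call was higher in the combination library.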

How the results depend on the processing

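No paired analysis was possible because each group is 1 library, and leaving out a replicate leaves none. All values here are log2 ratios. For IL-10/2-Trikine over mono-IL-10, the median of the 5 receptors in T cell-like cells was -0.0045 and became 0.17 with TMM factors, 0.19 with median-of-ratios factors, -0.10 with a marker gate per cell, 0.0937 in cells with no Mki67 UMI and, chosen after seeing the data, -0.14 with the subset mix held fixed. Cd274 in macrophage-like and monocyte-like cells (0.03) became -0.10 with the gate, 0.0876 without Mki67 and, added later, -0.0251 without T cell marker UMIs, and Pdcd1lg2 there (1.17) 0.99 without called doublets and, added later, 1.002 without T cell marker UMIs. The share of T cell-like cells with at least 2 receptors (0.23) became 0.0828 with the gate, 0.42 without Mki67, 0.35 at 500 UMIs, 0.32 at 2000 UMIs and, added later, 0.0574 with the mix fixed. For Trikine + anti-PD-1 over IL-10/2-Trikine the receptor median (0.62) became 0.57 with TMM, 0.56 with median-of-ratios, 0.73 with the gate, 0.54 without Mki67 and, added later, 0.40 with the mix fixed. Cd274 (0.15) became 0.22 with the gate, Pdcd1lg2 (-0.16) became 0.0736 without doublets and, added later, 0.19 without T cell marker UMIs, and the share (0.55) became 0.66 with the gate, 0.41 at 2000 UMIs and, added later, 0.26 with the mix fixed. The receptor medians in NK cell-like cells (0.32 and 0.09) stayed, under every planned setting, within the counting interval of the receptor that gave the median. That interval belongs to 1 gene, and the median itself has none. Single receptors there crossed 1.5-fold under some settings. Without doublets, Havcr2 in mature DC-like cells (1.06) was -0.62 and Pdcd1lg2 in KP1 tumor cell-like cells (0.87) was -0.21, for IL-10/2-Trikine over mono-IL-10. Apart from where settings remove cells by construction, the cause was not tested. Of 302 other planned values past 1.5-fold, 300 kept their direction and 255 stayed past it. Under the settings added later, 12 of 12 such values kept their direction and 6 stayed past 1.5-fold. Each value is 1 result under 1 setting, so a result is counted more than once. Depth limits Tigit, Pdcd1lg2 in macrophages and the small DC and naive-like populations.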

Other observations

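ILC2-like cells, few in number at 35, 112 and 35 and not part of the T and NK comparisons, carried Pdcd1 at 99.2 (58.8 to 157), 168 (136 to 206) and 198 (144 to 265) CPM, in the range of T subsets such as Ly6c2-led CD8 cells, together with the Ctla4 levels given above. The 10 T cell markers summed to 2419, 2321 and 3111 CPM in these cells and the 10 NK cell markers to 38.6, 1404 and 1973 CPM, both highest in the combination as Pdcd1 was, and their part in it was not tested. Of the 3 ILC2-like subclusters, 1 supplied 6, 24 and 24 of these cells, thus most of those of the combination. Its 10 leading genes held the mast cell/basophil markers Cpa3, Mcpt8 and Gata2, with Cpa3 first, beside ILC2 markers. In it the most often detected Cd3 gene had a UMI in 87.0% of cells, beside 17.9% and 18% in the other 2. Their Pdcd1lg2 was 77.1, 100.2 and 163 CPM and their Cd274 237, 197 and 185 CPM.

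Cd274 in T cell-like cells, at 93.5, 62.0 and 96.5 CPM, had ratios of 0.663 (0.636 to 0.691) and 1.56 (1.501 to 1.61), although each level was below that of empty droplets. The 9 macrophage markers in those cells summed to 88.6, 32.1 and 66.6 CPM. In T cell-like cells with no UMI of any macrophage marker the log2 ratios were -0.61 and 0.67, beside -0.59 and 0.64. With no Mki67 UMI, Cd274 was 118, 116 and 148 CPM and its ratios were 0.985 and 1.27, both under 1.5-fold. Pdcd1lg2 in T cell-like cells was 43.7, 71.7 and 84.2 CPM, and in the same cells without macrophage markers its log2 ratios were 0.76 and 0.21, beside 0.71 and 0.23. The setting without macrophage markers was chosen after seeing the data.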
